A study of Mus musculus with 4 samples.

Results

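The Slco and Slc22 genes encode the carriers that move organic anions, cations and carnitine through the cell membrane. They were taken as all protein-coding mouse genes whose symbol is Slco or Slc22a followed by a digit, and 39 of 21887 protein-coding genes met the rule: 14 Slco genes and 25 Slc22 genes, on 13 chromosomes. H3K27me3, a histone mark of Polycomb-silenced chromatin, was mapped by ChIP-seq in GL261, an established mouse glioblastoma cell line. One group was the H3K27me3 library of irradiated cells (the label IR was read so from the series title), the other the H3K27me3 library of control cells, and each condition had an input library that was not used here by itself. Both groups are cultures of this line grown with serum, and the labels name no genetic change. The sources used here do not give the dose or the time after irradiation. Each group is 1 library, so there is no replicate spread, no p-value between conditions, and every interval below covers counting error only.

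The Slco genes encode the organic anion transporting polypeptides, sodium-independent carriers of bile acids, thyroid hormones, prostaglandins, conjugated steroids and many drugs. The Slc22 genes encode the organic cation transporters, the carnitine and ergothioneine carriers and the organic anion transporters, which are best known in liver, kidney and intestine. Several members of both families lie side by side in tandem arrays, and Slc22a2, Slc22a3 and Slc22a18 lie in imprinted regions that are silenced on the paternal chromosome in mouse placenta. Polycomb marks silent genes most often at starts rich in CpG dinucleotides.

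A member counted as holding a peak when a deposited peak of any strength overlapped the gene, or the 2 kb on either side, by at least 1 bp. The irradiated list had 16091 peaks and the control list 9866. The lists were kept by an unadjusted p of up to 0.00499 in the irradiated and 0.00495 in the control list, so a listed peak is weak evidence of the mark by itself. The peaks rested on few reads, with a recovered median of 11 ChIP reads at a summit in the irradiated list and 10 in the control list. Over all protein-coding genes, 8.20% held a peak in irradiated and 6.05% in control cells. None of the 10 glial and progenitor markers of a glioma line held a peak in either list (interval up to 30.8%). Of the 39 Hox genes, known Polycomb targets in many cell types, 3 (7.69%) held a peak in irradiated and 1 (2.56%) in control cells. These shares are not above those of all genes, but the Hox genes are short, with a median of 3.74 kb. Of all genes under 20 kb, 4.11% held an irradiated and 2.31% a control peak. The Hox shares were above these, with intervals that include them (1.62 to 20.9 and 0.0649 to 13.5). Of 14 markers of neurons, oligodendrocytes, leukocytes, endothelium and epithelia, 3 held an irradiated (21.4%, 4.66 to 50.8) and 1 a control peak (7.14%, 0.181 to 33.9).

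Of the 39 members, 10 held a peak in at least one list and 29 held none. In irradiated cells 8 members held 14 peaks, and in control cells 3 members held 5 peaks. The share of members with a peak was 20.5% (exact 95% interval 9.30 to 36.5) in irradiated cells, where 8.20% of all protein-coding genes had one, and 7.69% (1.62 to 20.9) in control cells, where 6.05% of all had one. Slc22a3 alone was in both lists, and 3.67% of all genes were. A further 7 members were in the irradiated list alone (4.53% of all genes) and 2 in the control list alone (2.38% of all). The members were chosen on these peaks, so the counts are a description.

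**Figure D1:**
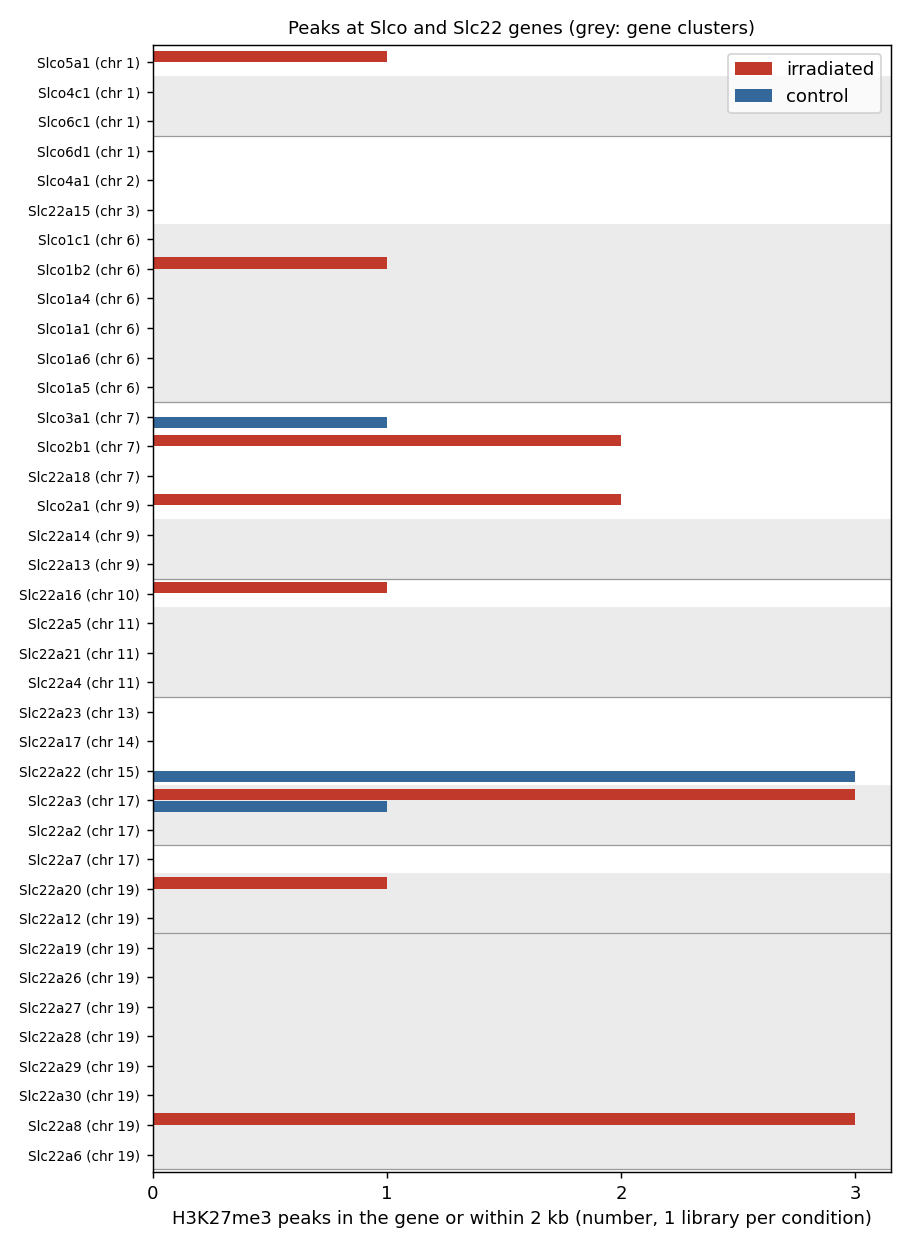
Number of H3K27me3 peaks (horizontal axis) in each gene shown or within 2 kb of it, in irradiated (red) and control (blue) cells, by chromosome and position; grey bands, split by thin lines, are gene clusters. The 10 genes with a bar hold 14 irradiated and 5 control peaks, and Slc22a3 is the gene with both colours.

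No member peak reached a q of 0.05. The lowest q was 0.0536 in the irradiated list, at Slc22a16 and Slc22a3, and 0.385 in the control list, at Slco3a1 and Slc22a22. At a q of at most 0.05, 2.08% of all genes held an irradiated peak and 0.516% a control peak, against 0 of 39 members in each list. With only peaks whose −log10 p reached 5, the shares of all genes were 3.28% and 0.859%, and again 0 of 39 members. Member peaks had 9 to 16 reads at the summit in irradiated cells and 8 to 12 in control cells. Their fold enrichment over the authors' background was 2.73 to 4.35 with a median of 3.75 in irradiated cells, beside a median of 3.67 over that whole list. In control cells it was 2.81 to 3.75 with a median of 3.43, the same as the median of that list. The member peaks were thus near the middle of each list in strength.

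No member peak overlapped a peak of the other list. The closest pair lay in Slc22a3, with a gap of 5.44 kb between an irradiated and a control peak. The other gaps from a member peak to the other list reached 846 kb. Slc22a3, the gene in both lists, therefore holds no site in both lists. The share of all listed peaks that overlap the other list is not given here. Whether the lack of overlap is particular to the members was not tested.

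The genes with a peak were longer than those without. Their median length was 72.5 kb, against 44.3 kb for the members without a peak and 17.2 kb for all protein-coding genes. Within the class of 50 to 100 kb, 4 of 13 members (30.8%) held an irradiated peak beside 13.6% of all genes of that length. A control peak was held by 1 of 13 (7.69%) beside 9.98%. From 100 to 300 kb the order was reversed, with 1 of 6 (16.7%) beside 19.6% in irradiated and 2 of 6 (33.3%) beside 19.3% in control cells. Under 20 kb it was 1 of 7 beside 4.11% and 0 of 7 beside 2.31%. From 20 to 50 kb it was 2 of 13 beside 8.26% and 0 of 13 beside 4.85%. All these classes are small. Counted per length, the members held no excess. Their windows covered 2.62 Mb and held 5.34 peaks per Mb (2.92 to 8.96) in irradiated and 1.91 (0.620 to 4.45) in control cells. All protein-coding genes with 2 kb held 5.57 and 2.86 peaks per Mb in irradiated and control cells. Irradiated peaks outnumbered control peaks 2.80 times at the members (0.953 to 9.93) and 1.95 times at all genes (1.87 to 2.03), a difference within counting error.

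Many members lie on chromosomes with dense peaks, and the members' own windows held fewer peaks than their surroundings. At the density of each gene's own chromosome the 39 windows would hold 21.0 irradiated peaks, and 14 were found (7.65 to 23.5). They would hold 13.1 control peaks, and 5 were found (1.62 to 11.7). At the density of the 1 Mb on either side of each gene the numbers would be 35.1 irradiated and 21.1 control peaks. The observed numbers were 0.399 of these in irradiated and 0.237 in control cells, where all protein-coding genes counted the same way gave 0.696 and 0.659. Slc22a22 on chromosome 15, singled out after its values were seen, weighed most in this. Without it, 14 irradiated peaks stood beside 14.4 at chromosome density, and 2 control peaks (0.242 to 7.22) beside 7.79. Observed over flank density was then 0.659 for the irradiated members, beside 0.696 for all protein-coding genes, and 0.191 for the control members, beside 0.659.

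**Figure D2:**
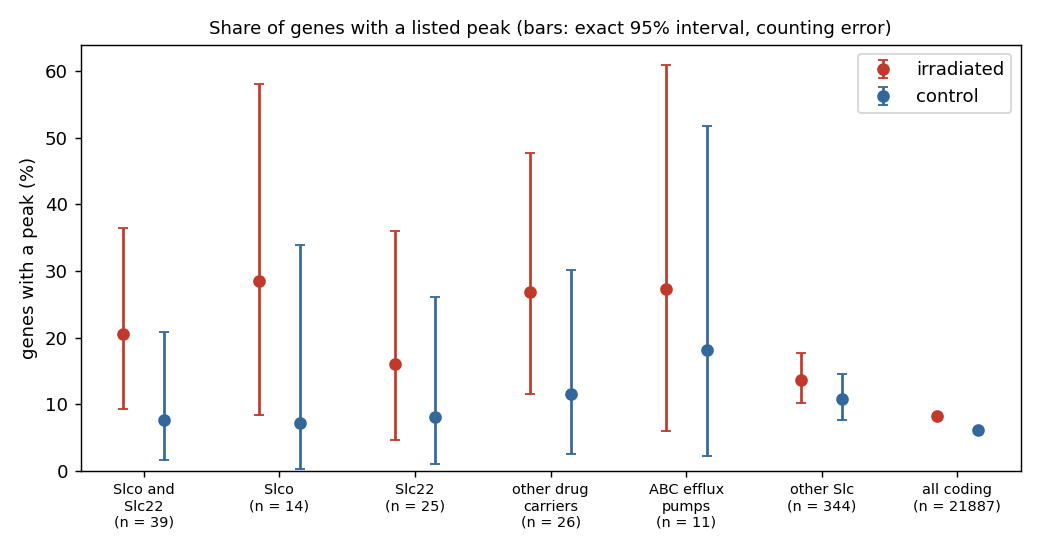
Percentage of genes with a peak in the gene or within 2 kb (vertical axis) in irradiated (red, left) and control (blue, right) cells, for the 39 members, each family, and comparison groups; bars are exact 95% intervals of counting error. The members stand at 20.5% and 7.69%, beside 13.7% and 10.8% of 344 other Slc genes and 8.20% and 6.05% of all protein-coding genes.

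Promoter sequences help to see what kind of gene starts these are. RefSeq gave the start region, 250 bases before to 50 after the start on GRCm38.p6 (the assembly of mm10), for 34 of the 39 members. The 6 printed here, 5′ to 3′ with CG dinucleotides in capitals, are the start that control peaks flank (Slc22a22), those of the marked cation and anion carriers Slc22a3 and Slc22a8, a start with no CG (Slco1b2) and the starts with the highest ratio of observed to expected CG among members with a peak (Slco2a1) and among all members (Slc22a15, without a peak).
Slc22a22 (chr15:57477576-57477875, minus strand): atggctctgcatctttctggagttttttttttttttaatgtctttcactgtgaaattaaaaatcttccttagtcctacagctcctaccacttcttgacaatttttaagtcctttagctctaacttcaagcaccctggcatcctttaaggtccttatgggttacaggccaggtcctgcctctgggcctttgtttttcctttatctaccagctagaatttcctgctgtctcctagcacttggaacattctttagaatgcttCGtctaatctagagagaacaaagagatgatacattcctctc
Slc22a3 (chr17:12507655-12507954, minus strand): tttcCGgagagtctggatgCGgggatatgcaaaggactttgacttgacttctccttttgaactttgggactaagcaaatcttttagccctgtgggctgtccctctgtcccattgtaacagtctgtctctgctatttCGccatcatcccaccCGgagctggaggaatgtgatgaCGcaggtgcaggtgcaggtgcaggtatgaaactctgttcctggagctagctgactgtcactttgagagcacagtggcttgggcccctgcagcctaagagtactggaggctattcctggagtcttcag
Slc22a8 (chr19:8592932-8593231, plus strand): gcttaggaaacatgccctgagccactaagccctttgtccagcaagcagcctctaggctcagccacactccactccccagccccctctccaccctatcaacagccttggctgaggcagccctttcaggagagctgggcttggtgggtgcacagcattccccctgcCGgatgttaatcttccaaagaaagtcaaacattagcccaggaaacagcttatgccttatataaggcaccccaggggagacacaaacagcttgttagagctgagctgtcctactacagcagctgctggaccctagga
Slco1b2 (chr6:141629268-141629567, plus strand): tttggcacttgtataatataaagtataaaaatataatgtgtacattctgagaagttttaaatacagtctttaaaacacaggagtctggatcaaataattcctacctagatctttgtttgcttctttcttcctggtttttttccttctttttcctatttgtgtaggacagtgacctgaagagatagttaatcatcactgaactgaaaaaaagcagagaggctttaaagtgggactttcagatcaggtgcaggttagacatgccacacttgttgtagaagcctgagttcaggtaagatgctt
Slco2a1 (chr9:103008237-103008536, plus strand): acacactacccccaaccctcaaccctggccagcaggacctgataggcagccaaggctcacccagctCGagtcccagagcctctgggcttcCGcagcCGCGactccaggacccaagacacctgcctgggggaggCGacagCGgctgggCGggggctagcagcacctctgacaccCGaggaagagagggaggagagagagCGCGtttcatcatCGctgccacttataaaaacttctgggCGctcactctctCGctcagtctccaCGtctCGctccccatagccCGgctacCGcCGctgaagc
Slc22a15 (chr3:101924404-101924703, minus strand): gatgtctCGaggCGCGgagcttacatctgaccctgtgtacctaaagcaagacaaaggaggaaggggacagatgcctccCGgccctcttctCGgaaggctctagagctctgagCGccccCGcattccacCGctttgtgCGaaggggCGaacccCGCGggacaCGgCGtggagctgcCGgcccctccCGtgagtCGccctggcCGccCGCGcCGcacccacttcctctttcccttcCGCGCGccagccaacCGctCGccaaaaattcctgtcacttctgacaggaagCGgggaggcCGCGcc

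These starts were poor in CpG. Over the 39 member promoters (some genes have several) the ratio of observed to expected CpG had a median of 0.172, with a range of 0 to 0.901, against 0.567 over 21263 promoters of all protein-coding genes. A ratio of at least 0.6 was found in 6 member promoters (15.4%) and in 47.7% of all. The 6 belong to Slc22a15, Slc22a5, Slc22a23, Slc22a4, Slco4a1 and Slco4c1, and none of these genes held a peak. The 11 promoters of members with a peak belong to 8 genes, since Slco5a1 and Slco3a1 had no promoter window. Of these 11 promoters, 0 reached 0.6. That of Slco2a1, with 18 CG in 300 bases and a ratio of 0.599, came closest. The medians of members with and without a peak were 0.122 and 0.172. No peak of either list overlapped any member promoter window. The windows are 300 bases each, and all chromosomes held 5.95 irradiated and 3.64 control peaks per Mb. At such densities 0 in 39 windows was likely beforehand, so it says nothing particular about these starts. The share over all promoters is not given here.

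**Figure D3:**
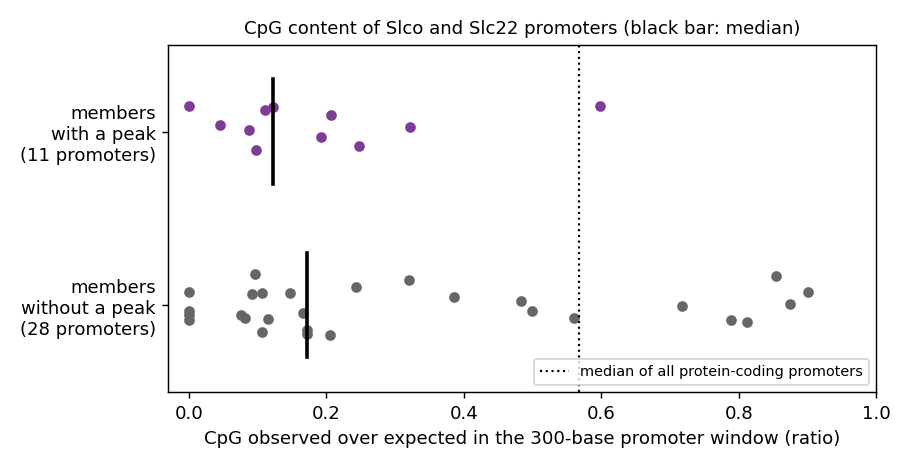
Ratio of observed to expected CpG in 300-base promoter windows (horizontal axis) for members with a peak in either list (top, 11 promoters) and without (bottom, 28 promoters); points are promoters, black bars medians (0.122 and 0.172), the dotted line the median of all protein-coding promoters (0.567). The promoters above 0.6 all belong to members without a peak. Slco5a1 and Slco3a1, which hold a peak, had no promoter window and are not shown.

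The letters TATAAA, searched on both strands, were in 8 member promoters (20.5%) and in 12.6% of all. They were in those of Slco1c1, Slco1b2, Slco1a1, both of Slco1a5, Slco2a1, Slc22a13 and 1 of Slc22a22. Such matches describe letters only.

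Among the organic cation transporters, Slc22a3 (chromosome 17, 12419972 to 12507704), which encodes the extraneuronal monoamine transporter, had most peaks. It held 3 peaks in irradiated and 1 in control cells. The strongest irradiated one, chr17:12425764-12426428, had 12 reads at a fold of 4.35 over a background of 0.756 scaled reads, with p 1.45e-05 and q 0.0536. It lay 81.7 kb from the start of the 87.7 kb gene, near its far end. The other 2 irradiated peaks lay 19.2 and 12.5 kb from the start, with folds of 3.84 and 2.73 and q of 0.149 and 0.537. The weakest of them stood over a background 2.84 times the lowest of its list. The control peak, chr17:12431865-12432272, had 9 reads at a fold of 3.43, with p 0.00038 and q 0.831, and lay 75.7 kb from the start. Both lists thus have a peak in the far part of the gene, at separate sites, and the irradiated list has 2 more in the part near the start.

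The irradiated peaks went on outside the gene. Between Slc22a3 and Slc22a2 lay 4 more, the nearest 4.38 kb upstream of the Slc22a3 start, with folds of 3.46, 3.84, 2.78 and 2.83 and q of 0.149 to 0.672, and no control peak lay there. The span of 213 kb from Slc22a3 to Slc22a2 held 7 irradiated peaks, or 32.9 per Mb (13.2 to 67.9), beside 3.58 in the rest of chromosome 17. It held 1 control peak, or 4.71 per Mb (0.119 to 26.2), beside 1.72. All 7 lay in Slc22a3 or upstream of it within 21.0 kb. Slc22a2, which encodes the kidney cation transporter OCT2, had no peak, the nearest irradiated one being 55.2 kb and the nearest control one 152 kb away. Peaks were not limited to this span, since 1 Mb on either side held 27 irradiated and 13 control peaks. The 1 Mb on either side of Slc22a3, which includes the 4 irradiated peaks upstream, held 14.5 irradiated and 5.01 control peaks per Mb. That is below the density of the span for irradiated but not for control peaks. Further along the same imprinted region Igf2r, which encodes the receptor that clears insulin-like growth factor 2, had no peak. The noncoding RNA gene Airn, which silences the region in cis, held 1 irradiated peak (fold 2.36, q 0.915) and 0 control peaks. Plg, which encodes plasminogen, borders Slc22a3 and held 0 irradiated peaks and 1 control peak (fold 3.25, q 0.831). Mas1, a receptor gene for angiotensin 1-7, held 1 in each list. Its irradiated peak has the same fold and q as that of Airn, so both genes may share this peak.

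**Figure D4:**
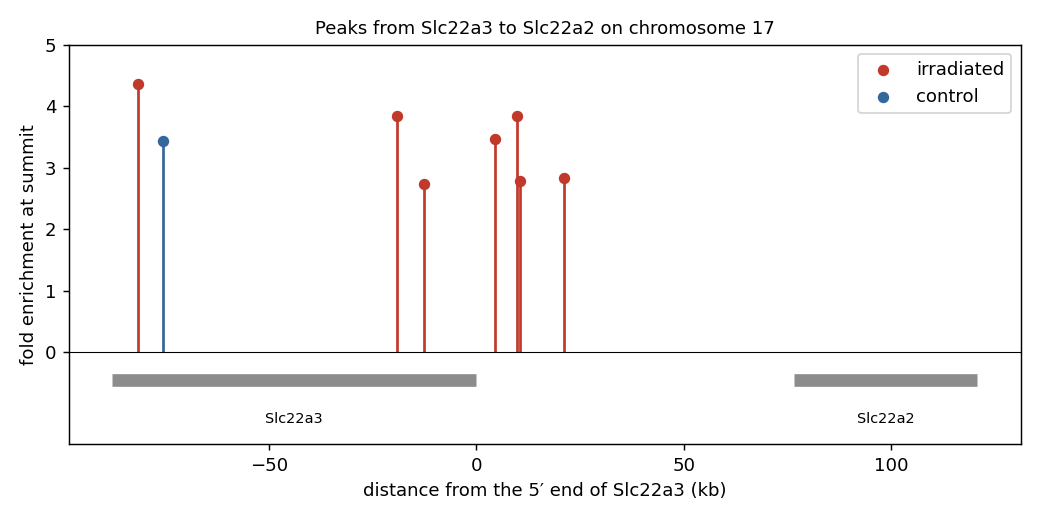
Fold enrichment at the summit (vertical axis) of each peak in the Slc22a3 to Slc22a2 span against its distance from the 5′ end of Slc22a3 (horizontal axis, kb; genes as grey bars), irradiated in red and control in blue. All 7 irradiated peaks (folds 2.73 to 4.35) and the 1 control peak (3.43) lie in Slc22a3 or next to its start, and none lies in Slc22a2.

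Among the organic anion transporters of chromosome 19, Slc22a8, which encodes OAT3 of the kidney proximal tubule (8591254 to 8611835), held 3 peaks in irradiated and 0 in control cells. The strongest, chr19:8608103-8608520, had 11 reads at a fold of 3.70, with p 4.91e-05 and q 0.0962. The others had folds of 3.08 and 3.55 and q of 0.712 and 0.149; the second lay 0.748 kb past the gene, inside the lncRNA gene Gm36394, so it may belong to either. The nearest control peak was 17.6 kb away. Its neighbour Slc22a6, which encodes OAT1, the classic kidney carrier of para-aminohippurate, had none within 2 kb. A control peak lay 3.61 kb and an irradiated one 5.01 kb from Slc22a6, the closest of any member left without a peak. Just inside the limit, Slc22a22 and Slc22a8 owed 1 peak each to the 2 kb margin.

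The array of 8 genes from Slc22a19 to Slc22a6 spans 959 kb and held 3 irradiated peaks, all at Slc22a8, and 2 control peaks between genes. That is 3.13 per Mb (0.645 to 9.14) in irradiated cells beside 4.58 in the rest of the chromosome, and 2.09 (0.253 to 7.53) in control cells beside 2.19. Slc22a19 and Slc22a26 to Slc22a30, rodent genes of this array, held no peak in 396 kb of gene. The sources used here do not give how reads that fit several copies were placed. In the other chromosome 19 cluster Slc22a20, known in mouse as the olfactory carrier Oat6, held 1 irradiated peak (13 reads, fold 3.26, q 0.173) and 0 control peaks. That peak also lies in the lncRNA gene Gm31719 and stood over a background 2.15 times the lowest of the list. Slc22a12, which encodes the urate exchanger, had none, with the nearest at 11.2 kb in irradiated and 1407 kb in control cells.

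Slc22a22 (chromosome 15, 57243767 to 57477625), which encodes a prostaglandin-specific anion carrier of mouse kidney, was the reverse case, with 0 irradiated and 3 control peaks. The control peaks lay on either side of the start, 1.73 kb before and 2.01 kb after it, and 76.4 kb into the gene. The one upstream, chr15:57479129-57479421, had 10 reads at a fold of 3.75, with p 4.9e-05 and q 0.385. The one just past the start had 12 reads at a fold of 2.81 over a background 2.18 times the lowest, with q 1. The one inside the gene had 8 reads at a fold of 3.11, also with q 1. The nearest irradiated peak was 93.3 kb from the gene. This part of chromosome 15 is dense in both lists, with 116 irradiated and 89 control peaks in the 1 Mb on either side of the gene, or 58.1 and 44.6 per Mb. The gene itself, with 238 kb of window, held 0 irradiated peaks where its chromosome's average would give 6.64, and 3 control peaks where it would give 5.27.

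Slc22a16, whose human counterpart is a carnitine carrier of the testis, held 1 irradiated and 0 control peaks. The peak, chr10:40577315-40577937, had 11 reads at a fold of 4.04, with p 1.45e-05 and q 0.0536, and lay 7.10 kb from the start. It shares the lowest q of all member peaks, and 30.5% of the irradiated list had a lower p.

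The carnitine and ergothioneine carriers Slc22a5, Slc22a21 and Slc22a4 form a cluster of 169 kb on chromosome 11 and held no peak. The span between them held 1 irradiated and 1 control peak, where the rest of this chromosome averaged 17.8 and 7.59 per Mb. At that density the 3 gene windows would hold 2.07 irradiated and 0.884 control peaks, so 0 in each was within counting error. The other Slc22 genes without a peak were Slc22a7 (the anion carrier OAT2), Slc22a13 and Slc22a14, Slc22a15, Slc22a17 (a receptor for lipocalin 2), Slc22a18 and Slc22a23. Slc22a18 lies in the imprinted Kcnq1 region, and its nearest peaks were 68.0 kb away in irradiated and 110 kb in control cells. In that region Kcnq1, a potassium channel gene, held 6 irradiated peaks (strongest fold 4.47, q 0.0157) and 0 control peaks, while the noncoding RNA gene Kcnq1ot1 held 0 in each. Of the 13 neighbours listed there, 2 (15.4%) had an irradiated and 1 (7.69%) a control peak, beside 8.20% and 6.05% of all protein-coding genes.

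Among the Slco genes, Slco2a1 (chromosome 9, 103007061 to 103096002), which encodes the prostaglandin transporter, held 2 irradiated and 0 control peaks. They lay 16.5 and 33.4 kb from the start. The stronger, chr9:103040325-103040932, had 11 reads at a fold of 3.80, with p 3.36e-05 and q 0.0708; the weaker had 9 reads at 3.21, with q 0.537. The nearest control peak was 146 kb away. Slco2b1 (chromosome 7, 99657804 to 99711340), a carrier of steroid sulfates and drugs, also held 2 irradiated and 0 control peaks. The stronger, chr7:99701736-99702005, had 16 reads, the most of any member peak, at a fold of 3.88, with q 0.0708. Its background was 2.19 times the lowest of the list and that of the other (14 reads, fold 3.81, q 0.117) 1.84 times. Both lie in the overlapping lncRNA gene Gm34280 as well, so they cannot be given to one of the 2 genes.

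**Figure D5:**
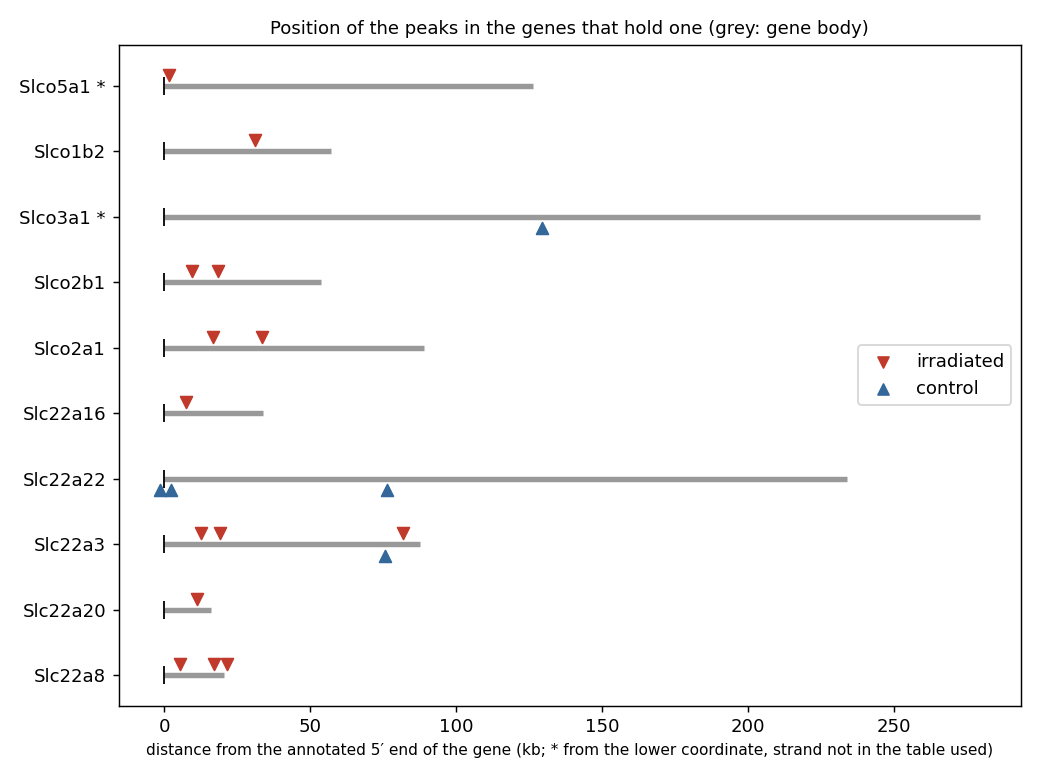
Position of each member peak along its gene (horizontal axis, kb from the annotated 5′ end; asterisks mark genes drawn from the lower coordinate), with irradiated peaks as red triangles above and control peaks as blue triangles below the grey gene body. Of the 14 irradiated peaks 13 lie inside a gene and 1 downstream; of the 5 control peaks 4 lie inside and 1 upstream, at Slc22a22.

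The 6 Slco1 genes stand in an array of 803 kb on chromosome 6. Slco1b2, the liver carrier of bile acids and bilirubin, held 1 irradiated peak (chr6:141660454-141660723, 12 reads, fold 3.82, q 0.149) and 0 control peaks. Slco1c1, the thyroxine carrier of the brain barriers, Slco1a4, a carrier of brain capillaries and liver, and Slco1a1, Slco1a5 and Slco1a6 held none in either list. Gm5724 and Gm6614, 2 coding genes between them, held none either, nor did Iapp, which encodes the islet peptide amylin. The array held 1.25 irradiated peaks per Mb (0.0315 to 6.94) where the rest of chromosome 6 held 13.3, and 0 control peaks (up to 4.60 per Mb) where the rest held 8.42. Its flanks of 1 Mb held 72 irradiated and 35 control peaks. Counted over the 6 gene windows alone, 1 irradiated peak (0.0253 to 5.57) stood beside 5.40 at the density of the chromosome. For control peaks 0 (up to 3.69) stood beside 3.40, and both were within counting error of that density. At the density of the 1 Mb on either side of each gene, the windows would hold 8.08 irradiated and 4.75 control peaks. Both of these numbers are above the upper limits. Whether reads of these similar genes were dropped was not tested.

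The remaining Slco genes were sparsely marked. Slco5a1 on chromosome 1 held 1 irradiated peak (9 reads, fold 3.51, q 0.537) and 0 control peaks. Slco3a1 on chromosome 7, the longest member at 279 kb and a carrier of prostaglandins and thyroxine, held 0 irradiated peaks and 1 control peak (chr7:74404834-74405163, 10 reads, fold 3.75, q 0.385). Slco4a1, a thyroid hormone carrier, had none, with the nearest at 9.38 kb in irradiated and 83.0 kb in control cells. Slco4c1, a kidney carrier, and the testis genes Slco6c1 and Slco6d1 held none, and the nearest peak of either list was 2755 kb from any of them; the lncRNA gene Slco6b1 and the pseudogene Slc22a13b, left out by the rule, had none.

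The clusters thus differed. Of 7 clusters (members under 1 Mb apart), 5 had a peak within their span in irradiated and 3 in control cells, with 15 and 4 peaks. The 26 clustered members held an irradiated peak in 4 cases (15.4%, 4.36 to 34.9) and a control peak in 1 (3.85%, 0.0973 to 19.6). The 13 members that stand alone did so in 4 (30.8%, 9.09 to 61.4) and 2 (15.4%, 1.92 to 45.4). These intervals overlap widely. Between the families, 4 of 14 Slco genes (28.6%) and 4 of 25 Slc22 genes (16.0%) held an irradiated peak, and 1 (7.14%) and 2 (8.00%) a control peak, with intervals that overlap as widely.

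Of 26 carriers of bile acids, drugs, nucleosides and urate outside both families, 7 held an irradiated peak (26.9%) and 3 a control peak (11.5%). The exact intervals were 11.6 to 47.8 and 2.45 to 30.2, and over all protein-coding genes the shares were 8.20% and 6.05%. These lists were chosen with earlier results of these data known, so their counts are a description. Slc16a10, an aromatic amino acid and thyroid hormone carrier, held 3 irradiated peaks (strongest fold 5.37, q 0.00437) and 2 control peaks (fold 2.78, q 1). Slc28a2, a nucleoside carrier, held 1 irradiated peak (fold 5.14, q 0.0119) and 0 control peaks. Slc2a9, a urate carrier, held 15 irradiated peaks (strongest fold 4.16, q 0.0536) and 1 control peak (fold 3.11, q 1). Of 11 efflux pumps of the ABC family 3 (27.3%, 6.02 to 61.0) had an irradiated and 2 (18.2%, 2.28 to 51.8) a control peak. Their median length was 95.1 kb, and of all genes of 50 to 100 kb 13.6% and 9.98% held one. Abcc2, which exports conjugates into bile, held 8 irradiated and 4 control peaks, with folds of 5.75 and 3.77 and q of 0.000505 and 0.140. Of 12 regulators of carrier genes 4 (33.3%, 9.92 to 65.1) held an irradiated and 3 (25.0%, 5.49 to 57.2) a control peak. Ppara, a fatty acid receptor gene, held 5 irradiated peaks (strongest fold 4.16, q 0.0498) and 1 control peak (3.23, 0.831). Condition and library cannot be told apart with 1 library each.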

How the data were processed

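H3K27me3 peak lists of 2 ChIP libraries of GL261 cells, 1 irradiated and 1 control, were analysed; per the submitters' processing notes, BWA and deepTools were used with build mm10, no version being named. The sources used here do not give the peak caller, its settings or the use of the inputs. The authors deposited a score, a fold (enrichment at the summit over background, modelled as given below), a −log10 p-value and a −log10 q-value for each peak, called per library. The deposited score equalled 10 times the −log10 p, cut to whole numbers. Lines with a further summit of the same peak, 679 in the irradiated and 215 in the control list, were merged.

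Reads and background were recovered from the deposited fold and −log10 p under a Poisson model, within 0.001 of the −log10 p, for 100% of peaks (more than 1 solution for 1.23% in the irradiated and 0.568% in the control list); the method was tested on simulated data. The model took the fold as scaled reads plus 1 over background plus 1, not as a plain ratio. A ChIP read counted for 0.554 scaled reads in the irradiated and 0.620 in the control list. Depth is known only as reads per summit, since library totals are not in the lists. Gene positions were those of RefSeq on GRCm38.p6 without the mitochondrion, and strand and starts those of its promoter table. Shares have exact Clopper-Pearson intervals, densities exact Poisson intervals and ratios intervals from the binomial share, all at 95%. Named were every member with a peak and, from each comparison list, up to 4 genes of lowest q. Kcnq1ot1, Airn, Igf2r, Iapp and the Gm genes were chosen after their values were seen. Some genes are not reported here, but stay in the counts. Members and lists were chosen with earlier results of these data known. Alternatives are given in the closing section. Python 3.11.15, numpy 2.4.6, pandas 2.3.3, scipy 1.17.1 and matplotlib 3.10.9 were used.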

Additional observations from a re-analysis of the deposited data

How the results depend on the processing

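When q was held to at most 0.05, or a −log10 p of at least 5, 0 members and 0 member peaks were left in each list and in every class, and at that −log10 p 0 peaks were left in 0 cluster spans. Within 2000 bp of a gene start (of either end where no start could be placed), 1 member in irradiated and 1 in control cells held a peak. That made 0 in both lists, 1 in the irradiated list alone and 1 in the control list alone. The irradiated one was Slco5a1, whose start could not be placed, so its peak may lie at the far end of the gene. The control one was Slc22a22, whose start is known. Joining members under 2 Mb apart gave 23 irradiated peaks in cluster spans instead of 15, since the chromosome 19 span then holds the genes between. With equal numbers of peaks the irradiated counts were 7 members and 10 peaks, a ratio of 2.00 to control. Windows of 0, 500 and 5000 bp gave ratios of 3.25, 3.25 and 2.50, and leaving out peaks over a raised background gave 2.50. No member peak met one of the other list by any definition of overlap tried, and the share over all listed peaks is not given here. No paired analysis was possible because each group has 1 library. The depth of 8 to 16 reads at a member peak does not show whether a gene without a listed peak lacks the mark.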
